A study of Homo sapiens with 17 samples.

Results

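The RNA levels of 9 genes were followed in colon cancer cells treated with toyocamycin. The genes encode 5 transcriptional cyclin-dependent kinases, their 3 cyclins and the assembly factor of CDK7. They are CDK7, CCNH and MNAT1 of the TFIIH kinase, CDK8, CDK19 and CCNC of the Mediator kinase, and CDK12, CDK13 and CCNK. They were chosen by name from the 19141 genes of the count table, and all 9 were counted and passed the filter on low counts. The study treated YB5 cells with 250 nM of toyocamycin, which is an analog of adenosine, and control cells with DMSO, and sequenced polyA-selected RNA after 2, 10, 24, 48 and 72 h to follow what the drug does to transcription. YB5 is a derivative of the SW48 colon cancer line, and the cells of both arms carry a GFP transgene that is silenced behind a methylated CMV promoter. The labels give the last time as 72 h, which is used here, whereas 96 h is named in the account of the experiment. Each arm has 2 libraries of the 2 h time, 3 of the 72 h time and 1 each of 24 and 48 h, while 10 h has 1 DMSO and 2 toyocamycin libraries.

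A transcriptional CDK phosphorylates RNA polymerase II or the factors that act on it, and each one needs a cyclin. CDK7, cyclin H and the assembly factor MAT1 (MNAT1) form the kinase of TFIIH, which phosphorylates the polymerase's C-terminal domain (CTD) near the promoter and, as the CDK-activating kinase, also activates other CDKs. CDK8 or its paralog CDK19 binds cyclin C (CCNC) and joins Mediator, the complex that relays signals from activators to the polymerase, whereas CDK12 and its paralog CDK13 bind cyclin K (CCNK) and phosphorylate the CTD during elongation, CDK12 being known for keeping up the expression of long DNA repair genes.

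The libraries held between 8735465 and 22121364 reads counted on genes. Replicate 2 of toyocamycin at 10 h had the lowest total and stood apart, since its highest correlation with any other library was 0.916 (log2 CPM), against at least 0.953 for each of the others. YB5 cells in DMSO expressed the epithelial genes EPCAM, KRT8, KRT18, CDH1 and CDX2. VIL1 and CDH17 were low, with means of 1.70 and 1.41 CPM (a gene's reads relative to the library's depth after TMM scaling). KRT20 and LGALS4 were at or near 0. At 72 h the summed level of 9 colon epithelium markers was 5808 to 6682 CPM in DMSO and 534 to 571 CPM on toyocamycin. There, 5 of the 8 tested markers fell and 3 rose. Of all genes tested, 41.9% fell and 47% rose at 72 h. The sum of 8 markers of other cell types was 1.93 to 3.07 CPM in DMSO and 87.9 to 107 CPM on toyocamycin, nearly all of it ACTA2 with a mean of 88.1 CPM, while HBB was at 0 in both arms. At 10 h that sum was 65.9 CPM in replicate 2 of toyocamycin, of which HBB made 41.9 CPM, against 2.28 CPM in replicate 1 and 5.36 CPM in DMSO. The colon markers summed to 5101 and 4328 CPM on toyocamycin at 10 h against 1736 CPM in the lone DMSO library. Of the 9 markers 7 rose there, where 20.4% of all genes tested rose. That DMSO sum was the lowest of the DMSO libraries, which read 3378 and 3057 CPM at 2 h. KRT8 alone ranged from 752 CPM, in the 10 h library, to 4689 CPM in DMSO. At 24 h the sum was 4282 against 2032 CPM. At 48 h it was 1518 against 2939 CPM, when the markers of other cell types stood at 39.9 against 1.40 CPM. The part of these shifts in the comparisons at 10, 24, 48 and 72 h was not tested.

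Promoter sequence is shown for both paralog pairs, since CDK8 and CDK19 both fell at 72 h whereas CDK13 rose and CDK12 did not pass the test, and for CCNK, whose change at 72 h was the largest of the 9 under the main scaling. Each stretch is the 250 bases just before the outermost annotated start (GRCh38, GENCODE release 44), 5′ to 3′ on the gene's strand. They lie at chr13:26253854-26254103 on the plus strand for CDK8, at chr6:110815959-110816208 on the minus strand for CDK19 and, all on the plus strand, at chr17:39461236-39461485 for CDK12, chr7:39949871-39950120 for CDK13 and chr14:99480919-99481168 for CCNK. None of them overlaps an annotated exon. The start annotated as canonical is the outermost one for CDK12. It lies further downstream at 26254129 for CDK8, 110815469 for CDK19, 39950256 for CDK13 and 99481409 for CCNK. The windows therefore lie at unlike distances from the canonical start, furthest for CDK19. Motifs and GC content are compared between windows that are unlike in this way. Both strands were searched for 6 motifs, and matches are in capitals. The motifs were the TATA box, searched as TATAAA, the CCAAT box, searched by the letters of its name, and the GC box, searched as GGGCGG. The E-box was searched as CACGTG, the core of the cAMP response element as TGACG and the core of an ETS site as CCGGAAG.
CDK8: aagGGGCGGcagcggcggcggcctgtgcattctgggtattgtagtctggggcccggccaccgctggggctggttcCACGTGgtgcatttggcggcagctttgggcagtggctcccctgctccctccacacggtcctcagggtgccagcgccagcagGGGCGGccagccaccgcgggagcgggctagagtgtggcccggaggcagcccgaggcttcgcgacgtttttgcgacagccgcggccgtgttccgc
CDK19: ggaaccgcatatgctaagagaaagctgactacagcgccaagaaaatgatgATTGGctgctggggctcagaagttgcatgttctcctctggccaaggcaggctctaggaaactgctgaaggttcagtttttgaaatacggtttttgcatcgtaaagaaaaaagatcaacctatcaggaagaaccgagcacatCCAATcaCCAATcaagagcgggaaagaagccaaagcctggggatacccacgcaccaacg
CDK12: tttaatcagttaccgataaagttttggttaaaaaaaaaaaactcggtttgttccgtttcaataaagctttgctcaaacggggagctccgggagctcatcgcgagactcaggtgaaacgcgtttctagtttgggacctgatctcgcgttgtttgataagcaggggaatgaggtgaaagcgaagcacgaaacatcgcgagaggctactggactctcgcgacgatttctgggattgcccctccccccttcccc
CDK13: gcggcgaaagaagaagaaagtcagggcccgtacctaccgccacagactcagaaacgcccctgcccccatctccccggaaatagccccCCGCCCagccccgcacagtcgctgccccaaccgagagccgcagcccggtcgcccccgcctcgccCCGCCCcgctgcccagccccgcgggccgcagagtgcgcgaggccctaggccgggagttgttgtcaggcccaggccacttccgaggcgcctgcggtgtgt
CCNK: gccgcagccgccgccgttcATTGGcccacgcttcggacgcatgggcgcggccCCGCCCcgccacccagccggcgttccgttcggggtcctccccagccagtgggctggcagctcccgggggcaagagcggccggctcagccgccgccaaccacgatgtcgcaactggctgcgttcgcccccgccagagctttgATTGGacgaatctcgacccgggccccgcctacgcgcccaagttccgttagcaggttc
The GC box lay in the windows of CDK8, CDK13 and CCNK and in 49.9% of the 19068 windows read for the counted genes. The CCAAT box lay in those of CDK19 and CCNK and in 33.1% of all windows, and the E-box lay in that of CDK8 and in 7.15% of all windows. The TATA box and the cores of the cAMP response element and the ETS site lay in none of the 5 windows and in 9.71%, 22.9% and 8.96% of all windows. CDK12 held none of the 6 motifs, and its paralog CDK13 held the GC box 2 times. GC content was 48% in the windows of CDK19, 48.8% in CDK12, 71.2% in CDK8 and 72.4% in both CDK13 and CCNK.

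In the 8 DMSO libraries, CDK7 and CDK12 had the highest levels per length of annotated exon and CCNH the lowest. The mean level was 14.7 ± 3.87 CPM per kilobase (SD, n = 8) for CDK7 and 12.3 ± 1.14 for CDK12, and their ranges overlapped. MNAT1 (4.96 ± 0.78), CDK8 (4.77 ± 0.63), CDK13 (3.85 ± 0.42), CDK19 (3.83 ± 1.51), CCNC (3.74 ± 0.77) and CCNK (2.96 ± 0.15 CPM per kilobase) followed, and neighbours among these 6 overlapped in range. CCNH, at 1.27 ± 0.27 CPM per kilobase, lay below the range of every other gene of the 9. The length is that of all annotated exons merged, from 2416 bases for CDK7 to 24780 for CDK13. Which transcripts the cells express was not tested, so the order is uncertain. By CPM alone, CDK12 (160) and CDK13 (95.3) were highest. The spread covers 5 times in culture. From 2 to 72 h in DMSO, CDK7 rose by 0.58 ± 0.19 (log2 fold change ± SE, adjusted p = 0.051) and MNAT1 by 0.45 ± 0.17 (adjusted p = 0.084), whereas 0 of the 9 fell. Of all genes tested, 10.2% rose and 11.4% fell in that comparison. In it, 1 of the 2 libraries of 2 h is of batch 2 and all 3 of 72 h are of batch 1. Time and batch are therefore partly mixed. The calls of CDK7 and MNAT1 were each lost in 10 of the 16 alternatives. Left out in turn, 4 of the 5 DMSO libraries cost CDK7 its call (all but replicate 1 of 72 h, adjusted p from 0.102 to 0.154) and 4 cost MNAT1 its call (all but replicate 2 of 2 h, 0.145 to 0.337).

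**Figure D1:**
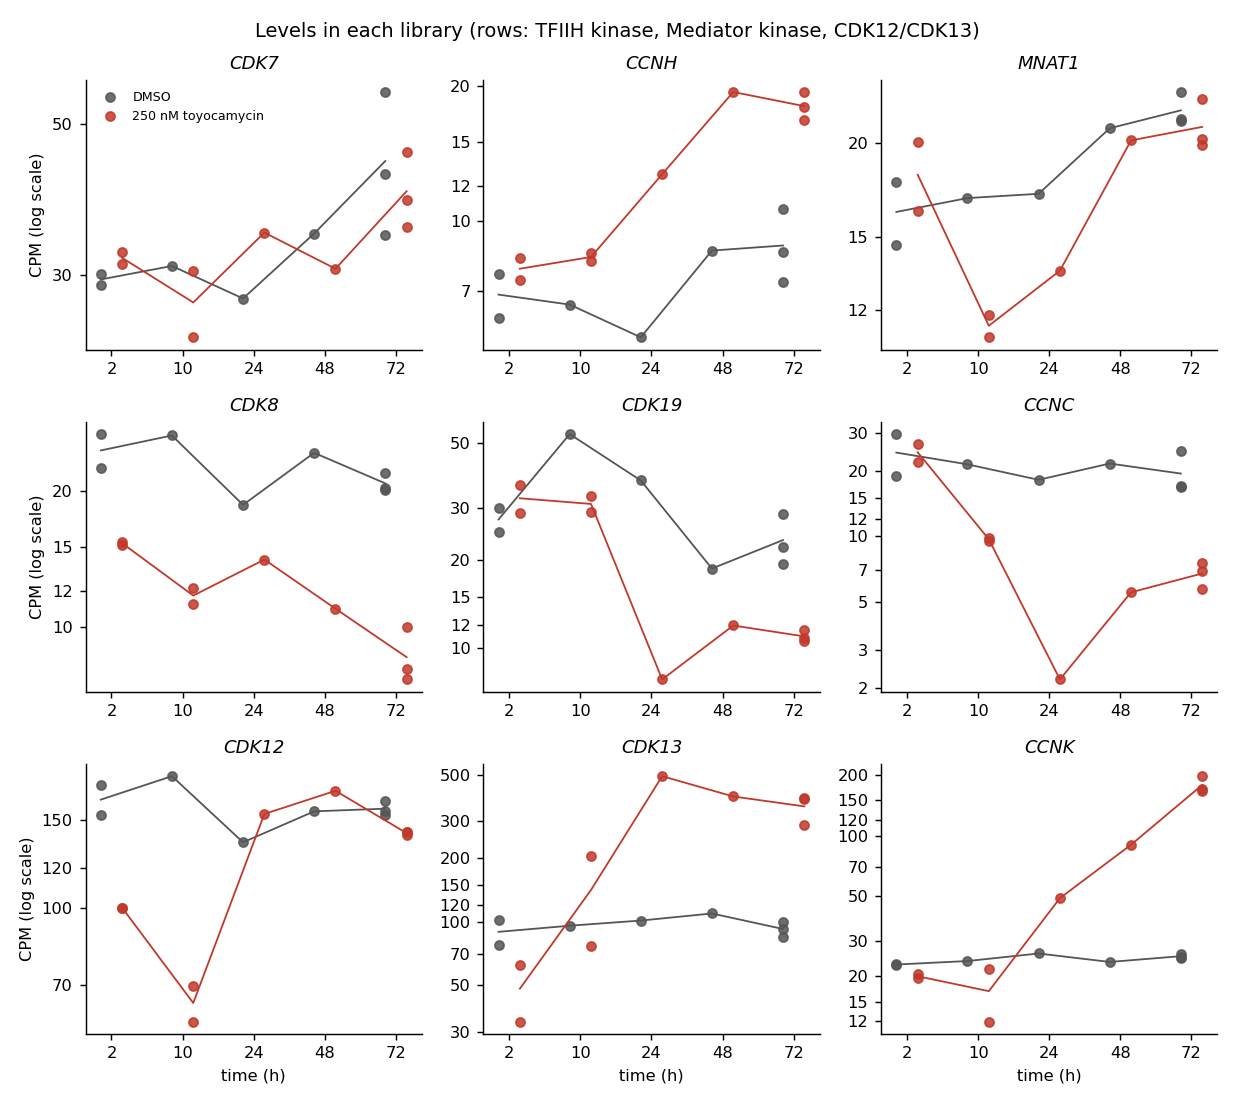
Level of each of the 9 genes in every library (y axis, CPM on a log scale) by time (x axis, h). Grey points are DMSO libraries, red points are toyocamycin libraries and lines join the means. At 72 h the toyocamycin points of CDK8, CDK19 and CCNC lie below all DMSO points and those of CCNH, CDK13 and CCNK lie above them.

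On toyocamycin 3 of the 9 genes fell and 0 rose at 2 h, and at 72 h 3 fell and 3 rose. The call was an adjusted p under 0.1 by the quasi-likelihood test of edgeR, with Benjamini-Hochberg adjustment over every gene tested. At 2 h the 3 were CDK8, CDK12 and CDK13, where 8.42% of all 14491 genes tested fell and 0.518% rose. With the replicate number, which is the batch at this time, as a block in a fit of the 2 h libraries, the same count of 3 fell, among 2217 lower and 1033 higher of 11848 genes. At 10 h 5 fell (MNAT1, CDK8, CDK19, CCNC and CDK12) and 0 rose, where 24.4% of 16521 genes fell and 20.4% rose. Without replicate 1 of toyocamycin, which leaves the pair within batch 2, the genes of the whole table that rose went from 3375 to 6447 and those that fell from 4033 to 4456, and with batch as a term 6239 rose and 4490 fell. At 24 and 48 h, with 1 library per arm and no test, genes past a 2-fold change were counted. There were 2 lower and 2 higher at 24 h, where 27.8% of all genes were lower and 29.7% higher, and 2 lower and 3 higher at 48 h, where 29.9% were lower and 38.1% higher. At 72 h CDK8, CDK19 and CCNC fell and CCNH, CDK13 and CCNK rose, where 41.9% of all genes fell and 47% rose. The median log2 fold change of the 9 was 0.0058, -0.56, 0.20, -0.03 and -0.12 at the 5 times in order, and that of all genes tested was 0.02, 0.42, 0, 0.16 and 0.18. These values are relative to the TMM scaling. In bulk RNA, a change in the number of cells of a kind and a change in RNA per cell cannot be told apart. With the libraries scaled on the 13 mitochondrially encoded protein genes, whose share of counts was 0.917 to 3.47% in DMSO and 1.46 to 6.55% on toyocamycin, the median of all genes at 72 h moved from 0.18 to -0.89, and with library size alone to -0.42. Under the first of these 7362 genes fell and 4204 rose at 72 h, against 6065 and 6804 under TMM. At 10 h it moved the median of all genes from 0.42 to -0.70, and at 2 h, where the median moved from 0.02 to -0.06, 0 of the 9 genes passed under it and 87 of all genes fell, although CDK8 (-0.77), CDK12 (-0.82) and CDK13 (-1.04) kept log2 fold changes of similar size.

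**Figure D2:**
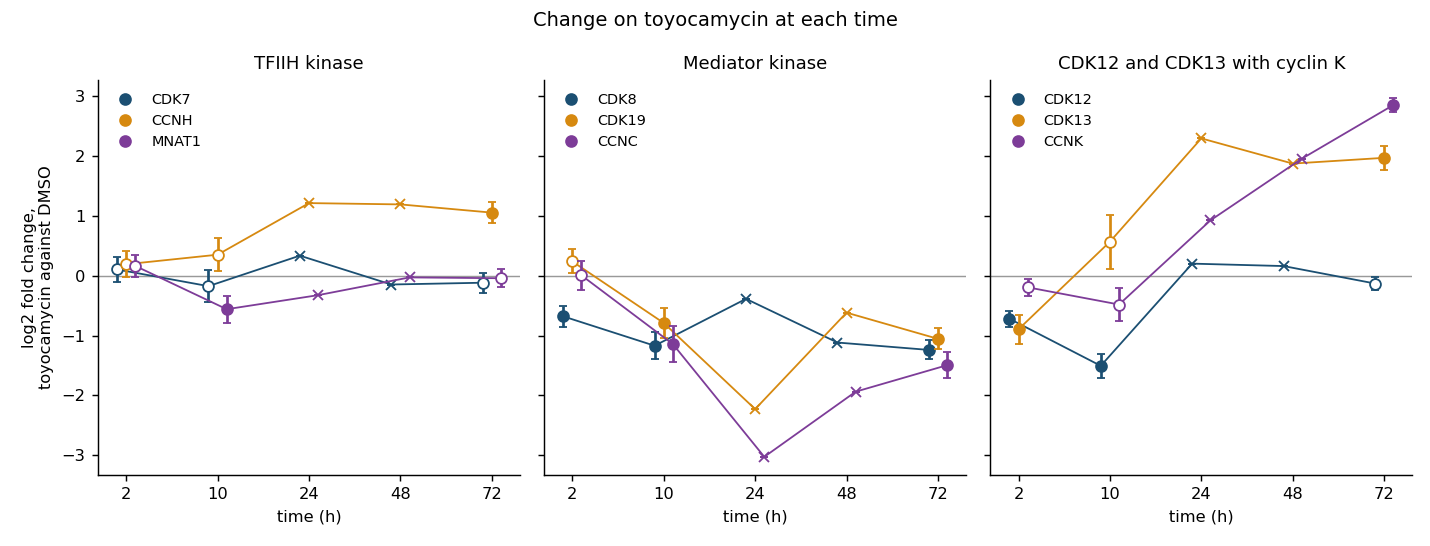
Log2 fold change of toyocamycin against DMSO (y axis) at each time (x axis, h) in the 3 kinases. Filled points passed an adjusted p under 0.1, open points did not, bars are SE, and crosses mark times with 1 library per arm and no test. The Mediator kinase genes lie at or below -1.06 at 72 h, while CDK13 and CCNK lie at 1.97 and 2.85.

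Of the TFIIH kinase, the cyclin rose late while the kinase and the assembly factor did not pass the test at 72 h. CDK7 (ENSG00000134058, chr5:69234795-69277430) stood at 34.4, 42.3 and 55.8 CPM in the 3 DMSO libraries of 72 h and at 45.6, 38.7 and 35.3 CPM in the 3 toyocamycin libraries. The arms overlapped, and the log2 fold change was -0.12 ± 0.17 (SE, adjusted p = 0.515, 95% confidence interval -0.44 to 0.21). Without DMSO replicate 3, which was the highest, it was 0.09. At 2, 10, 24 and 48 h it was 0.11, -0.17, 0.34 and -0.15, and at none of the tested times did CDK7 pass.

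CCNH (ENSG00000134480, chr5:87318416-87412930), the cyclin that activates CDK7, read 6.10 and 7.66 CPM in DMSO and 7.42 and 8.29 CPM on toyocamycin at 2 h. At 72 h it was 7.33, 8.55 and 10.6 CPM in DMSO and 19.4, 16.8 and 17.9 CPM on toyocamycin, a rise of 1.06 ± 0.18 (log2, 2.08-fold, adjusted p = 4.45e-05). The arms did not overlap at 72 h and did at 2 h, and the effect at 72 h exceeded that at 2 h by 0.86 ± 0.28 (adjusted p = 0.0124). The single libraries of 24 h (12.7 against 5.53 CPM) and 48 h (19.4 against 8.61 CPM) were 2.32-fold and 2.29-fold higher. With scaling on the mitochondrially encoded genes the log2 fold change of CCNH turned to -1.06 and -0.65 in the single libraries of 24 and 48 h and was 0.03 at 72 h (adjusted p = 0.953), and the difference between 72 and 2 h was -0.081. Exons of CCNH share 771 bases with those of RASA1 on the other strand, which fell by 2.35 on the log2 scale at 72 h, and the strand setting of the counting was not given in the sources used here.

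MNAT1 (ENSG00000020426, chr14:60734742-60969965), which encodes MAT1, fell at 10 h. There the lone DMSO library read 16.9 CPM and the toyocamycin libraries 11.8 and 11.05 CPM, a fall of 0.56 ± 0.23 (log2, adjusted p = 0.066). This call was lost in 7 of the 13 alternatives, among them the one without replicate 2 of toyocamycin (-0.51, adjusted p = 0.133) and DESeq2's size factors (-0.36, adjusted p = 0.202). The DMSO libraries of 72 h read 21.4, 21.6 and 23.4 CPM and the toyocamycin libraries 22.9, 19.9 and 20.2 CPM, which overlapped (log2 fold change -0.04 ± 0.15, 95% confidence interval -0.33 to 0.25). For CDK7 and MNAT1 the sign at 72 h depended on the scaling. DESeq2's size factors gave 0.21 for CDK7 and 0.28 for MNAT1, of which MNAT1 passed as higher (adjusted p = 0.086). Scaling on the mitochondrially encoded genes gave -1.14 and -1.10, both of which passed as lower (adjusted p = 0.014 and 0.0167), as they did with library size alone.

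The core of TFIIH, the helicases and structural subunits that open DNA at promoters and in nucleotide excision repair, changed in both directions at 72 h. Of 7 listed genes 6 were tested, and 0 of them passed at 2 h, where 8.42% of all genes tested fell and 0.518% rose. At 72 h 3 fell and 2 rose, with a median log2 fold change of -0.27, where 41.9% of all genes tested fell and 47% rose. ERCC2, the XPD helicase that bridges the core and the kinase, fell by 3.30 ± 0.17 (log2, mean 63.8 to 6.32 CPM), and the helicase gene ERCC3 fell by 0.49 ± 0.12. GTF2H1 rose by 0.82 ± 0.16 and GTF2H3 by 0.42 ± 0.14. These and the other listed genes were fitted under TMM alone, and a rise smaller than the shift of the median of all genes to the mitochondrial scaling (from 0.18 to -0.89 at 72 h) would not keep its direction there. GTF2H2, which has near-identical copies in the genome and whose count is therefore uncertain, read 4.73 CPM in DMSO and 2.12 CPM on toyocamycin (log2 fold change -1.12), and GTF2H4 was listed at 0 in the libraries of 2 and 72 h. Of 4 cell cycle CDKs, which the CDK-activating kinase is known to phosphorylate, 0 passed at 2 h and 0 at 10 h. Of all genes tested at 10 h, 24.4% fell and 20.4% rose. At 72 h CDK1 (-1.77), CDK2 (-5.53) and CDK4 (-1.04) fell and CDK6 (1.84) rose.

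All 3 Mediator kinase genes fell at 10 h and at 72 h, CDK8 already at 2 h. CDK8 (ENSG00000132964, chr13:26254104-26420982) read 22.4 and 26.7 CPM in DMSO and 15.2 and 15.4 CPM on toyocamycin at 2 h, so that both treated libraries lay below both controls. Its log2 fold change was -0.68 ± 0.18 at 2 h (adjusted p = 0.0315) and -1.17 ± 0.22 at 10 h (adjusted p = 7.07e-04). The call at 2 h was lost when DMSO replicate 2 (-0.55) or toyocamycin replicate 1 (-0.67) or 2 (-0.69) was left out. By 72 h DMSO libraries read 20.1, 20.3 and 21.9 CPM and the toyocamycin libraries 7.67, 10.0 and 8.08 CPM, a fall of 1.24 ± 0.16 (log2, adjusted p = 2.52e-06). The single libraries of 24 h (14.1 against 18.6 CPM) and 48 h (10.98 against 24.3 CPM) were lower too, the second by more than 2-fold.

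CDK19 (ENSG00000155111, chr6:110609978-110815958), the paralog of CDK8, did not pass at 2 h, when it read 24.8 and 30.1 CPM in DMSO and 28.9 and 35.9 CPM on toyocamycin. In DMSO it read 53.5 CPM at 10 h (batch 2) and 37.2 and 18.7 CPM at 24 and 48 h (batch 1). Each value is 1 library, so time, batch and library cannot be told apart. CDK19 was compared with these lone controls at these times. It fell by 0.79 ± 0.25 at 10 h (log2, adjusted p = 0.0196), where both treated libraries (29.0 and 32.9 CPM) lay below that highest DMSO library. At 24 h the toyocamycin library read 7.84 CPM, a log2 fold change of -2.23, and at 48 h 12.0 CPM, or -0.62. The DMSO libraries of 72 h read 19.3, 22.11 and 28.6 CPM and the toyocamycin libraries 10.8, 10.6 and 11.6 CPM, a fall of 1.06 ± 0.18 (adjusted p = 4.35e-05) with no overlap.

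CCNC (ENSG00000112237, chr6:99542387-99568825), whose cyclin is the partner of both kinases, had the lowest single count of the 9 genes. At 2 h it read 19.0 and 29.5 CPM in DMSO and 22.0 and 26.7 CPM on toyocamycin, which overlapped (log2 fold change 0.0058 ± 0.24). At 10 h the treated libraries read 9.57 and 9.84 CPM against 21.4 CPM in DMSO, a fall of 1.14 ± 0.30 (adjusted p = 0.00715). At 24 h there were 32 counts (2.20 CPM) against 467 (18.2 CPM), a log2 fold change of -3.03 with no replicate, and at 48 h 5.53 against 21.6 CPM, or -1.94. After 72 h, DMSO libraries read 16.8, 16.9 and 24.6 CPM and the toyocamycin libraries 7.57, 6.95 and 5.74 CPM, a log2 fold change of -1.496 ± 0.22 (adjusted p = 1.13e-05). Exons of CCNC share 733 bases with those of TSTD3 on the other strand, which rose by 1.99 on the log2 scale to a mean of 3.77 CPM at 72 h. The falls of CDK8, CDK19 and CCNC at 72 h passed under every scaling tried, between -0.92 and -2.33 for CDK8, -0.73 and -2.09 for CDK19, and -1.17 and -2.53 for CCNC.

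The 4 genes that tie this kinase to Mediator did not move as a block. MED12, which activates CDK8 through cyclin C, had a log2 fold change of 0.27 ± 0.15 at 2 h and fell by 3.71 ± 0.15 at 72 h, from a mean of 57.4 to 4.26 CPM. MED13, which anchors the module to Mediator, fell by 1.19 ± 0.19 at 2 h and rose by 1.03 ± 0.15 at 72 h, and its paralog MED13L fell by 0.48 ± 0.16 at 2 h (adjusted p = 0.094) and by 1.60 ± 0.13 at 72 h. MED12L was at 0 in the DMSO libraries of 2 and 72 h and had a mean of 1.31 CPM on toyocamycin at 72 h. In all, 2 of the 4 fell at 2 h and 3 at 10 h, and at 72 h 2 fell and 2 rose. Of all genes tested, 8.42% fell at 2 h and 24.4% at 10 h, and at 72 h 41.9% fell and 47% rose.

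CDK12, CDK13 and CCNK took 3 different courses. CDK12 (ENSG00000167258, chr17:39461486-39567559) read 153 and 176 CPM in DMSO and 99.79 and 100.003 CPM on toyocamycin at 2 h, a fall of 0.72 ± 0.14 (log2, adjusted p = 0.00365) that passed without any 1 of the 4 libraries. At 10 h the treated libraries read 69.7 and 59.1 CPM against 183 CPM in DMSO, a fall of 1.51 ± 0.20 (adjusted p = 3.52e-05). At 24 and 48 h the treated libraries (154 and 171 CPM) were within 2-fold of their controls (135 and 156 CPM). The DMSO libraries of 72 h read 156, 153 and 164 CPM and the toyocamycin libraries 141, 142 and 140 CPM, which did not overlap but differed by -0.13 ± 0.11 (adjusted p = 0.282, 95% confidence interval -0.35 to 0.09). The effect at 72 h was higher than that at 2 h by 0.59 ± 0.18 (adjusted p = 0.00738). With scaling on the mitochondrially encoded genes CDK12 was lower at 72 h (-1.20, adjusted p = 0.0115) and the difference between 72 and 2 h was -0.38. With library size alone CDK12 passed as lower at 72 h too. DESeq2's size factors gave a log2 fold change of 0.19 at 72 h (adjusted p = 0.114), which passed as higher in DESeq2's Wald test (0.19, adjusted p = 0.0557).

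CDK13 (ENSG00000065883, chr7:39950121-40099580) fell first and rose later. At 2 h it read 102 and 77.1 CPM in DMSO and 62.6 and 33.5 CPM on toyocamycin, and the lower value of each arm was that of batch 2. The fall was 0.90 ± 0.25 (log2, adjusted p = 0.0371), with -0.70 within batch 1 and -1.20 within batch 2. It was not called without DMSO replicate 1 (-0.68) or without toyocamycin replicate 2 (-0.52, adjusted p = 0.335). At 10 h the 2 toyocamycin libraries disagreed, with 206 CPM in replicate 1 (batch 1) and 76.9 CPM in replicate 2 (batch 2), on either side of 95.7 CPM in the DMSO library (batch 2). The log2 fold change was therefore 0.57 ± 0.45 (adjusted p = 0.302), 1.11 without replicate 2 (adjusted p = 0.0163) and -0.31 for the pair within batch 2. At 24 h it was 493 against 101 CPM and at 48 h 395 against 109 CPM, or 4.92-fold and 3.67-fold. The DMSO libraries of 72 h read 99.9, 92.3 and 84.7 CPM and the toyocamycin libraries 288, 389 and 385 CPM, a rise of 1.97 ± 0.20 (3.92-fold, adjusted p = 2.22e-07). The effect at 72 h exceeded that at 2 h by 2.87 ± 0.32 (adjusted p = 9.61e-07).

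CCNK (ENSG00000090061, chr14:99481169-99535044), the cyclin of both kinases, had the largest change of the 9 at 72 h under TMM scaling. At 2 h it read 23.1 and 22.7 CPM in DMSO and 19.6 and 20.5 CPM on toyocamycin, and the log2 fold change was -0.19 ± 0.15 (adjusted p = 0.605). At 10 h the treated libraries read 21.8 and 11.9 CPM against 23.8 CPM in DMSO (-0.48 ± 0.27, adjusted p = 0.169), and the pair within batch 2, 1 library against 1 with the spread borrowed from the other groups, gave -0.997 (adjusted p = 0.00236), its treated library being the one that stood apart. It was 48.9 against 26.0 CPM at 24 h and 90.1 against 23.6 CPM at 48 h. The DMSO libraries of 72 h read 25.8, 24.8 and 25.1 CPM and the toyocamycin libraries 197, 171 and 167 CPM, a rise of 2.85 ± 0.12 (7.23-fold, adjusted p = 1.05e-11). The rises of CDK13 and CCNK at 72 h passed under every scaling tried, at their smallest 0.86 and 1.78 with the mitochondrially encoded genes. Of the 8220 exon bases of CCNK, 4893 are shared with exons of CCDC85C on the other strand, which rose by 0.85 on the log2 scale at 72 h (mean 173 to 306 CPM), and how reads of the shared stretch were assigned was not given in the sources used here.

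**Figure D3:**
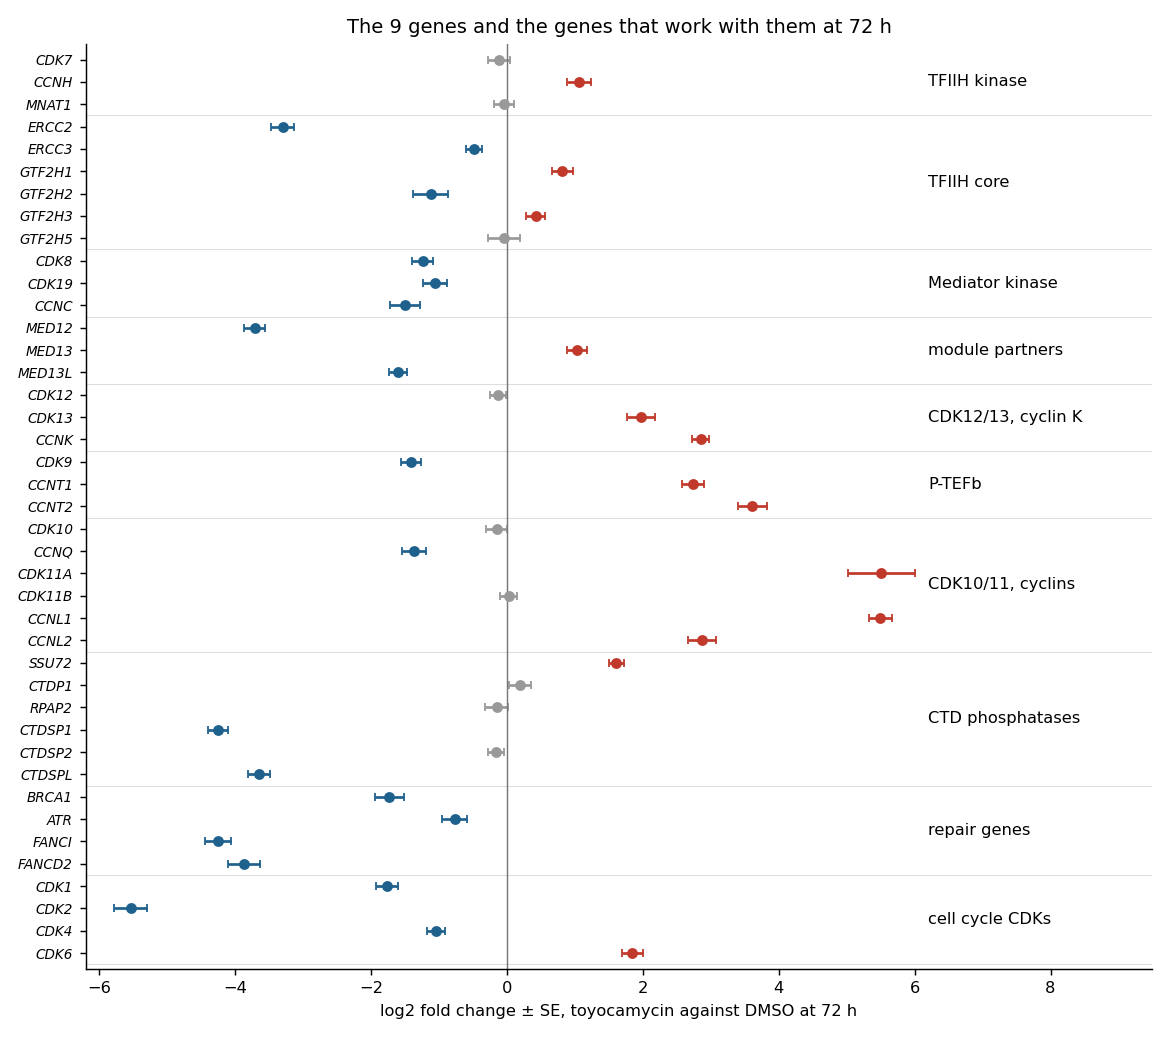
Log2 fold change of toyocamycin against DMSO at 72 h (x axis, points with SE) of the 9 genes and of the tested genes of the lists described beside them, except MED12L, which was at 0 in DMSO. Red points rose, blue points fell and grey points did not pass an adjusted p under 0.1. The 4 repair genes all lie below 0, while the cyclins CCNT1, CCNT2, CCNL1 and CCNL2 lie above 2.7.

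All 4 repair genes whose expression is known to depend on CDK12 were lower at 72 h. At 2 h, when CDK12 had fallen, 0 of the 4 passed, with log2 fold changes from 0.04 to 0.22. At 10 h BRCA1 (-1.58) and ATR (-1.91) fell. All 4 were lower by more than 2-fold in the single libraries of 24 h (-1.94 to -2.53) and 48 h (-1.37 to -3.48). At 72 h FANCI fell by 4.25, FANCD2 by 3.87, BRCA1 by 1.73 and ATR by 0.77. There CDK12 did not pass under TMM scaling but was lower with library size alone or with scaling on the mitochondrially encoded genes. Of all genes tested, 24.4% fell at 10 h and 41.9% at 72 h. Those lower by more than 2-fold were 27.8% at 24 h and 29.9% at 48 h. Whether the falls of the repair genes depend on CDK12 was not tested. Of 6 CTD phosphatases, which remove the marks that these kinases set, 0 passed at 2 h. At 72 h CTDSP1 fell by 4.25, CTDSPL fell by 3.65 and SSU72 rose by 1.61, where 47% of all genes tested rose.

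In P-TEFb, the elongation kinase, the kinase gene and its cyclins moved in opposite directions at 72 h. CDK9 fell by 1.41 ± 0.15 while the cyclin genes CCNT1 and CCNT2 rose by 2.74 ± 0.16 and 3.61 ± 0.21. At 2 h CCNT1 was the 1 gene of the 3 that passed, with a fall of 0.94 ± 0.19, where 8.42% of all genes tested fell. Of CDK10, CDK11A, CDK11B and their cyclins, 1 of 6 fell and 3 rose at 72 h, where 41.9% of all genes tested fell and 47% rose. CCNL1 and CCNL2, the cyclins L of CDK11, rose by 5.50 ± 0.16 and 2.87 ± 0.21, and CCNQ, the cyclin of CDK10, fell by 1.37 ± 0.17. CDK11A and CDK11B are near-identical copies, so the rise counted for the first (mean 0.205 to 9.25 CPM) and the value of the second (0.02) are uncertain.

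A ratio of 2 genes within a library does not depend on how libraries are scaled. In 3 of the 6 ratios examined, the 3 toyocamycin libraries of 72 h lay outside the DMSO range. The log2 ratio of CCNK to CDK12 reads went from -2.65 ± 0.06 (SD, n = 3) in DMSO to 0.34 ± 0.12 on toyocamycin at 72 h, a difference of 2.98. The log2 ratio of CDK13 to CDK12 went from -0.78 ± 0.16 to 1.32 ± 0.25, a difference of 2.09, and that of CCNH to CDK7 from -2.31 ± 0.08 to -1.14 ± 0.14, a difference of 1.17. Each gave p = 0.1 in an exact two-sided permutation test, the smallest that 3 against 3 libraries allow, and an adjusted p of 0.2 over the 6 ratios. The ratios of CDK19 to CDK8 (0.21), CCNC to CDK8 (-0.23) and MNAT1 to CDK7 (0.05) overlapped between the arms at 72 h (exact permutation p = 0.3, 0.4 and 0.9). At 2 h, with 2 libraries per arm, the arms did not overlap for CDK19 to CDK8 (difference 0.91) or CCNC to CDK8 (0.71). At 10, 24 and 48 h the differences were 0.38, -1.85 and 0.50 for CDK19 to CDK8. For CCNC to CDK8 they were 0.03, -2.65 and -0.82. There was 1 library per arm at 24 and 48 h and 1 DMSO library at 10 h. The differences at these earlier times were not tested.

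**Figure D4:**
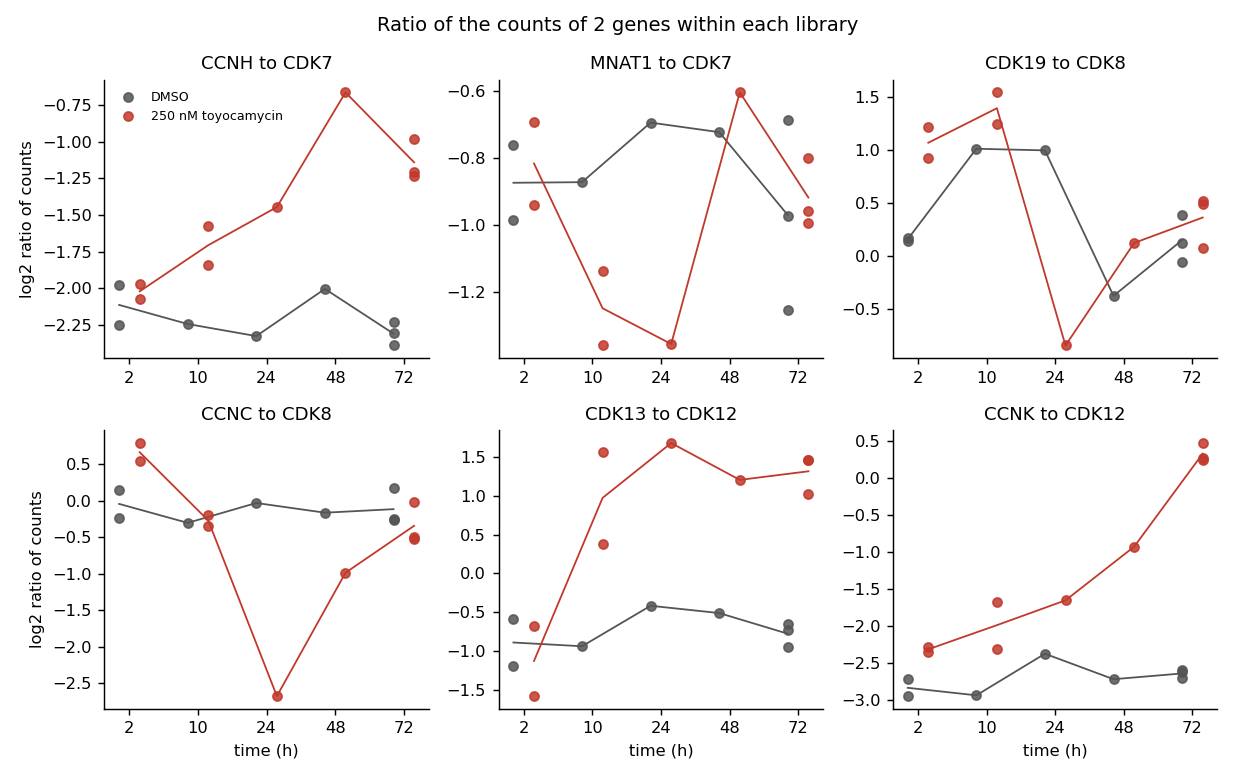
Log2 ratio of the counts of 2 genes within each library (y axis) by time (x axis, h). Grey points are DMSO libraries, red points are toyocamycin libraries and lines join the means. The ratios of CCNH to CDK7, CDK13 to CDK12 and CCNK to CDK12 separate the arms at 72 h, and the other 3 do not.

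The effect at 72 h differed from that at 2 h in 7 of the 9 genes, 3 lower and 4 higher, where 38.1% of all genes were lower and 38% higher. CDK7 (-0.22 ± 0.26) and MNAT1 (-0.21 ± 0.23) did not pass. CCNC, with a difference of -1.502 ± 0.33, and CDK19, with -1.29 ± 0.27, did not pass at 2 h and fell at 72 h, and CDK8 differed by -0.56 ± 0.24 (adjusted p = 0.0467), which was lost without DMSO replicate 1 or toyocamycin replicate 2 of 2 h or without toyocamycin replicate 1 of 72 h. For CCNK the difference was 3.05 ± 0.19 (adjusted p = 1.79e-09).

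Among 7783 expressed genes, those nearest to each of the 9 in course were found by the root mean square difference of the log2 fold changes over the 5 times, which share their controls within a time. The nearest to CCNK were DTWD1 (0.161) and RRM2B (0.177), and to CDK13 they were FASTKD5 (0.0761) and NFE2L2 (0.146). For CDK12 they were WAPL (0.131) and TTI1 (0.179). CDK8 was nearest to NACC2 (0.121) and SS18L1 (0.183), CDK19 to SPG11 (0.199) and RMND5B (0.267), and CCNC to DMAP1 (0.0850) and GLT8D1 (0.172). CDK7 was nearest to PPP2R5A (0.0994) and GPAT4 (0.109), CCNH to SCO1 (0.0667) and MTDH (0.123), and MNAT1 to MAPK8 (0.0746) and FAM199X (0.0984).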

How the data were processed

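PolyA-selected RNA of YB5 cells in 17 libraries was sequenced, 13 in batch 1 and 4 in batch 2, which holds replicate 2 of both arms at 2 and 10 h. The deposited values are raw counts of reads per gene, which the authors made with STAR 2.7.5a (GeneCounts) on GRCh38 and analysed with edgeR, as the labels and the submitters' processing notes give it. One further table, which holds the authors' comparisons (log2 fold changes and p-values), was not used, and 1 count column that no sample label matches was not used. Of 19141 gene identifiers 19080 had a symbol. The members and the gene lists were chosen with earlier results of these data known.

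Counts were fitted with edgeR 4.0.16 (R 4.3.3, limma 3.58.1) by the quasi-likelihood test after filterByExpr and TMM scaling, with Benjamini-Hochberg adjustment over all genes tested and an adjusted p under 0.1 as the call. The 14 libraries without 10 h gave 14491 genes for 2, 24, 48 and 72 h and all 17 gave 16521 genes for 10 h, where the lone DMSO library was assumed to vary like the other groups. At 24 and 48 h a 2-fold change was counted and nothing was tested. CPM values come from the fit of all 17 libraries. Ratios of counts at 72 h were compared by exact two-sided permutation tests (scipy 1.17.1). Named genes were the 9 members, the members of each list that passed or that share reads, and the 2 nearest genes to each member with an average log2 CPM of at least 4. Depth ran from 8735465 to 22121364 counted reads, and the lowest count of a member was 32. The labels call replicates biological without naming cultures, so p-values measure the spread between these libraries.

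Alternatives were DESeq2 1.42.0 (its size factors, and its Wald test), library size alone, scaling on 13 mitochondrially encoded protein genes, no filter, at least 10 counts in every library, all 17 libraries, batch as a term, a minimum fold of 1.5, an adjusted p under 0.05, each library left out and the replicate number as a block. At 2 h the number is the batch in both arms by the labels, and same-numbered libraries deviated together (r = 0.307 over 16521 genes). At 72 h the same check gave r = -0.105, 0.043 and -0.088, against up to 0.159 for libraries with unlike numbers. It therefore showed no pairing by number at 72 h, and it cannot settle whether same-numbered libraries were handled together. The block and the unblocked fit called the same number of members, 3 lower at 2 h and 3 lower and 3 higher at 72 h. Promoter windows were read from the GRCh38 sequence for 19068 genes. Tables were handled with Python 3.11.15 (pandas 2.3.3, numpy 2.4.6) and drawn with matplotlib 3.10.9.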

Additional observations from a re-analysis of the deposited data

Results flagged for a closer look

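In 7 of the 9 genes the effect of toyocamycin at 72 h differed from that at 2 h by a test of the difference itself (log2 difference of the effects, edgeR's quasi-likelihood test). Of all genes tested, 38.1% were lower and 38% higher in the same comparison, so the share among the 9 is near that of all genes. CCNH (0.86, adjusted p = 0.0124), CDK12 (0.59, adjusted p = 0.00738), CDK13 (2.87, adjusted p = 9.61e-07) and CCNK (3.05, adjusted p = 1.79e-09) were higher at 72 h relative to 2 h. CDK8 (-0.56, adjusted p = 0.0467), CDK19 (-1.29, adjusted p = 4.65e-04) and CCNC (-1.5, adjusted p = 7.05e-04) were lower. CDK13 was the gene of the 9 that passed in opposite directions at 2 and 72 h. Its call at 2 h was lost in 5 of the 16 alternatives, though its log2 fold change stayed below 0.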

How the results depend on the processing

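At 72 h the fall of CDK8, CDK19 and CCNC and the rise of CDK13 and CCNK kept their direction and passed under every scaling. Over the alternatives the count of members higher at 72 h ran from 2, with scaling on the mitochondrially encoded genes, to 4, with DESeq2's size factors or Wald test, and that of members lower at 10 h from 3 to 7. Counts that moved by more than 1.5 times were these. DESeq2's size factors and a minimum of 10 counts in every library each left 1 lower at 48 h. Library size alone gave 4 lower and 1 higher at 24 h, 6 lower at 72 h and 0 changed in DMSO from 2 to 72 h. Scaling on the mitochondrially encoded genes gave 0 lower at 2 h, 8 lower and 0 higher at 24 h, 6 lower and 0 higher at 48 h, 6 lower at 72 h and 0 changed in DMSO. Over all 14491 genes it gave 87 lower and 12 higher at 2 h against 1220 and 75 under TMM, 10305 lower and 1302 higher at 24 h against 4033 and 4299, and 8560 lower and 2910 higher at 48 h against 4328 and 5515. In DMSO the count was 1 with no filter, 0 with all 17 libraries, 1 with batch as a term and 0 at an adjusted p under 0.05. DESeq2's Wald test called 1 higher at 10 h, and a minimum fold of 1.5 gave 0 lower at 2 h, 3 lower at 10 h and 0 in DMSO.

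The sign of these log2 values turned. At 72 h, CDK7, MNAT1 and CDK12 were at 0.21, 0.28 and 0.19 both with DESeq2's size factors and with its Wald test and at 0.17, 0.24 and 0.15 with the minimum of 10 counts, while MNAT1 was at 0.037 with the replicate block. For the difference between 72 and 2 h, CDK7 and MNAT1 were at 0.067 and 0.081 with DESeq2's size factors and its Wald test and at 0.038 and 0.052 with 10 counts. At 10 h CDK7 was at 0.029 with both DESeq2 settings, CCNH at -0.11 with library size, and CDK13 at -0.028 with batch as a term and -0.31 for the pair within batch 2. Library size also gave CCNC -0.048 at 2 h and, in DMSO, CDK13 -0.11 and CCNK -0.011, and batch as a term gave CDK13 -0.41 in DMSO. With the mitochondrially encoded genes, CDK7 was at -0.029 and CCNC at -0.023 at 2 h, CCNH at -0.78 and CDK13 at -0.43 at 10 h, CCNH at -1.06 at 24 h and -0.65 at 48 h, CCNH at -0.081 and CDK12 at -0.38 for the difference between times, and CDK8, CDK19, CCNC and CDK12 at 0.49, 0.47, 0.46 and 0.66 in DMSO. The cause was not tested.

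Leaving out 1 library at a time gave 1 to 2 lower at 2 h, 4 to 6 lower and 0 to 1 higher at 10 h, 3 to 3 lower and 3 to 3 higher at 72 h, 6 to 7 differing between times, 0 to 1 in DMSO and 3 to 4 ratios apart. Values whose sign turned ranged from -0.28 to 0.36 for CCNC at 2 h, -0.31 to 1.11 for CDK13 at 10 h, -0.27 to 0.086 for CDK7 at 72 h and -0.089 to 0.19 for the ratio of MNAT1 to CDK7. In DMSO they ranged from -0.60 to 0.032 for CCNC, -0.16 to 0.041 for CDK12 and -0.14 to 0.26 for CDK13. The replicate block at 2 and 72 h changed no call of a member and left the ratios apart at 3, and at 10 h the arms share 1 number, so no block could be fitted. With 1 DMSO library at 10 h and 1 library per arm at 24 and 48 h, replicate error at those times is borrowed or unknown.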
